A study of Mus musculus with 9 samples.

Results

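Organoids grown from adenomas were compared, gene by gene, with organoids grown from the normal-appearing gut of the same kind of mice, to describe which pathways, cell types and metabolic functions differ between them. The genes described are those with enough counts to be tested in this comparison, which were 13744 of the 23955 gene symbols in the deposited table. RNA from 6 of the 9 sequenced mouse organoid cultures entered the comparison, 3 cultures called MIN and 3 called adenoma, each of which was sequenced as 1 bulk sample. Both groups came from APCmin/+ mice, which carry 1 mutated copy of Apc in every cell, so the MIN cultures are mutant too and no wild-type culture was used here. MIN organoids were grown from epithelium next to the tumors, and adenoma organoids from adenomatous polyps of the gut. The labels give neither the stretch of gut, the age of the mice nor the mouse behind each culture, and neither group was treated with a drug. All cultures received the same supplements, namely Noggin (an inhibitor of BMP signalling), EGF, bFGF, R-spondin1 (which strengthens Wnt signalling) and B27. The p-values measure the spread between these 3 and 3 cultures.

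The gut epithelium renews itself from stem cells at the base of the crypts. Wnt signalling keeps these cells dividing by stabilising beta-catenin, which then switches on target genes together with TCF/LEF factors, and APC is part of the complex that destroys beta-catenin. Their daughters become absorptive enterocytes, which carry digestive enzymes and transporters on a brush border, or secretory cells, which are Paneth cells (antimicrobial peptides), goblet cells (mucus), enteroendocrine cells (hormones) and tuft cells (chemical sensing). Organoids from normal gut hold most of these cell types, while tumors that have lost APC signal through beta-catenin without the normal brake.

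The MIN samples held 38373109 to 48412477 counts and the adenoma samples 32632837 to 33767840. CPM (counts per 1000000 of the library's total, scaled by TMM normalization) is the unit of every level, in the order of replicates 1, 2 and 3. A gene with 3 counts lies at 0.0654 to 0.0887 CPM in these libraries, and values at or below that are at the limit of detection, a limit that covers counting error only. Samples of a group resembled each other closely, with correlations of log2 CPM across genes of 0.984 to 0.994, against 0.767 to 0.792 between the groups. The first principal component separated the groups and took 93.2% of the variance. The second took 2.73% and set replicate 3 of both groups apart from replicates 1 and 2. MIN replicate 3 was the highest or the lowest MIN sample for 41.5% and 40.4% of the genes, and adenoma replicate 3 the highest or lowest adenoma sample for 41.6% and 37.6%.

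In adenoma organoids 2549 genes were higher and 2765 were lower than in MIN organoids at a false discovery rate (FDR) of 1% by edgeR's quasi-likelihood test. These are 38.7% of all genes tested, 18.5% in the higher and 20.1% in the lower direction, and each gene list below is read against these shares. In each of the 5314 genes called, the 3 adenoma values lay entirely above or below the 3 MIN values, as they did in 62.8% of all genes tested. Large changes were common in both directions: 353 of the higher genes and 794 of the lower genes differed by a fitted fold of more than 16, a fold that depends on the prior count of the fit for genes without a count in 1 group. The median log2 fold change (adenoma over MIN throughout) was -0.01 over all genes tested, 1.43 among the higher and -1.64 among the lower genes. Scaling by the total count alone moved the median of all genes to 0.12, and small changes below are relative to the TMM scale.

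**Figure D1:**
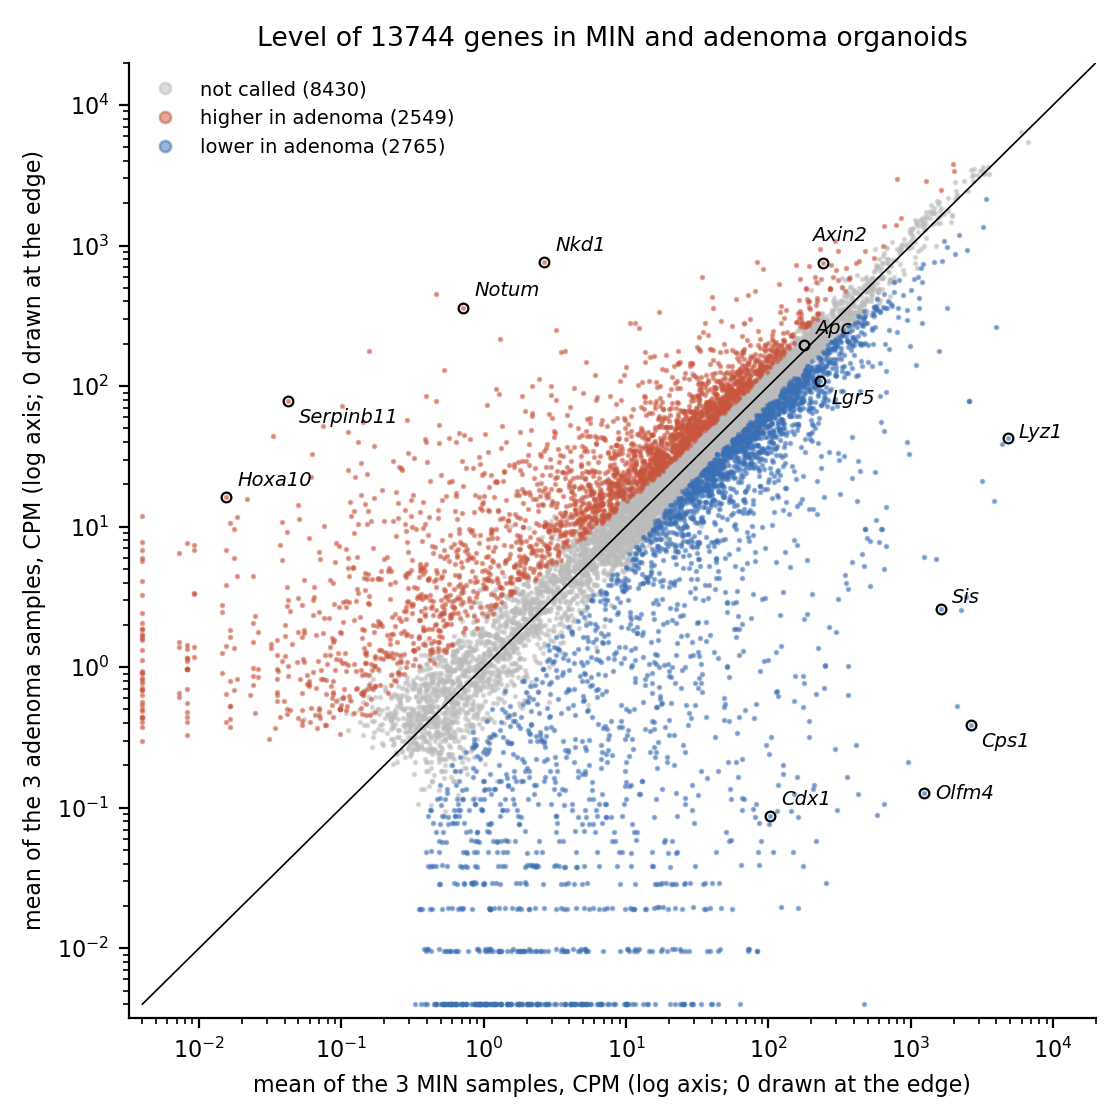
Mean level of each of the 13744 genes tested in the 3 MIN samples (x axis) and the 3 adenoma samples (y axis), both in CPM on log axes, with the 2549 higher genes in red, the 2765 lower genes in blue and the rest in grey. Genes below the diagonal reach means of over 1000 CPM in MIN with almost no counts in adenoma, among them Cps1 and Olfm4, while Notum and Nkd1 lie far above it.

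Among the genes with the largest increases was Ifitm1, of the interferon-induced transmembrane family, at 0.571, 0.371 and 0.445 CPM in MIN and 399.7, 471 and 476 CPM in adenoma. Serpinb11, a serine protease inhibitor of the serpin family, was at 0.0497, 0.0218 and 0.0556 CPM in MIN, 1 or 2 counts per library, and at 62.7, 86.1 and 85.7 CPM in adenoma, a count ratio of 1908 (817 to 5877) with its 95% counting interval. Prom2, a pentaspan membrane protein, rose from 0.10 ± 0.0309 CPM to 71.6 ± 7.47 CPM (mean ± SD, n = 3, as in all pairs of this form). Zap70, a tyrosine kinase known for T cell receptor signalling, had no count in any MIN library and was at 6.57, 9.74 and 19.2 CPM in adenoma, at least 159-fold higher. The T cell gene Cd3e did not have enough counts to be tested. Stra6, the membrane receptor that takes up vitamin A, stood at 0, 0.0436 and 0.0556 CPM in MIN and 37.3, 38.9 and 57.2 CPM in adenoma. Sbspon, Gm15816, Clec2f and Scrn1 were also among the 12 largest increases. Of the 50-base stretches of the Sbspon transcripts (GENCODE M21) 72.4% also occur in other genes, and for Gm15816 the share was 40.9%, so how their reads were assigned is uncertain.

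Of the 12 genes with the largest decreases by fitted fold, an order that depends on the prior count for genes at 0, 10 had no count in adenoma, and the others were Olfm4, described with the stem cell genes, and Gm8979. For Gm8979 85.8% of the stretches occur in other genes, so how its reads were assigned is uncertain. Defa-rs7, a Paneth cell defensin-related peptide, was at 527, 469 and 419.7 CPM in MIN and had no count in any adenoma library, at least 5434-fold lower. Its symbol is not in GENCODE M21, so the share of its stretches found in other genes is not known. Moxd1, a monooxygenase, went from 56.5, 57.2 and 77.2 CPM to no count, at least 733-fold lower. Mme, the membrane peptidase neprilysin of the brush border, was at 62.9, 50.7 and 20.2 CPM in MIN and absent from the adenoma counts, at least 513-fold lower, with MIN replicate 3 the lowest of its group. Reg3a, an antimicrobial lectin, was at least 459.7-fold lower. Lrig3, a membrane protein with leucine-rich repeats, went from 36.4, 38.6 and 44.4 CPM to no count, at least 458-fold lower. Fam174b, Unc5cl, 2010106E10Rik and Fam83f had no count in adenoma either, against MIN means of 25.6 to 33.8 CPM. The share of stretches found in other genes was 21.8% for Fam83f and 14.7% for Fam174b. Slc6a4, the serotonin transporter, was at 22.1, 31.7 and 33.1 CPM in MIN and at 0 in adenoma, at least 333-fold lower. In all, 179 genes called lower had no count in the 3 adenoma libraries and 37 called higher had none in the 3 MIN libraries.

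**Figure D2:**
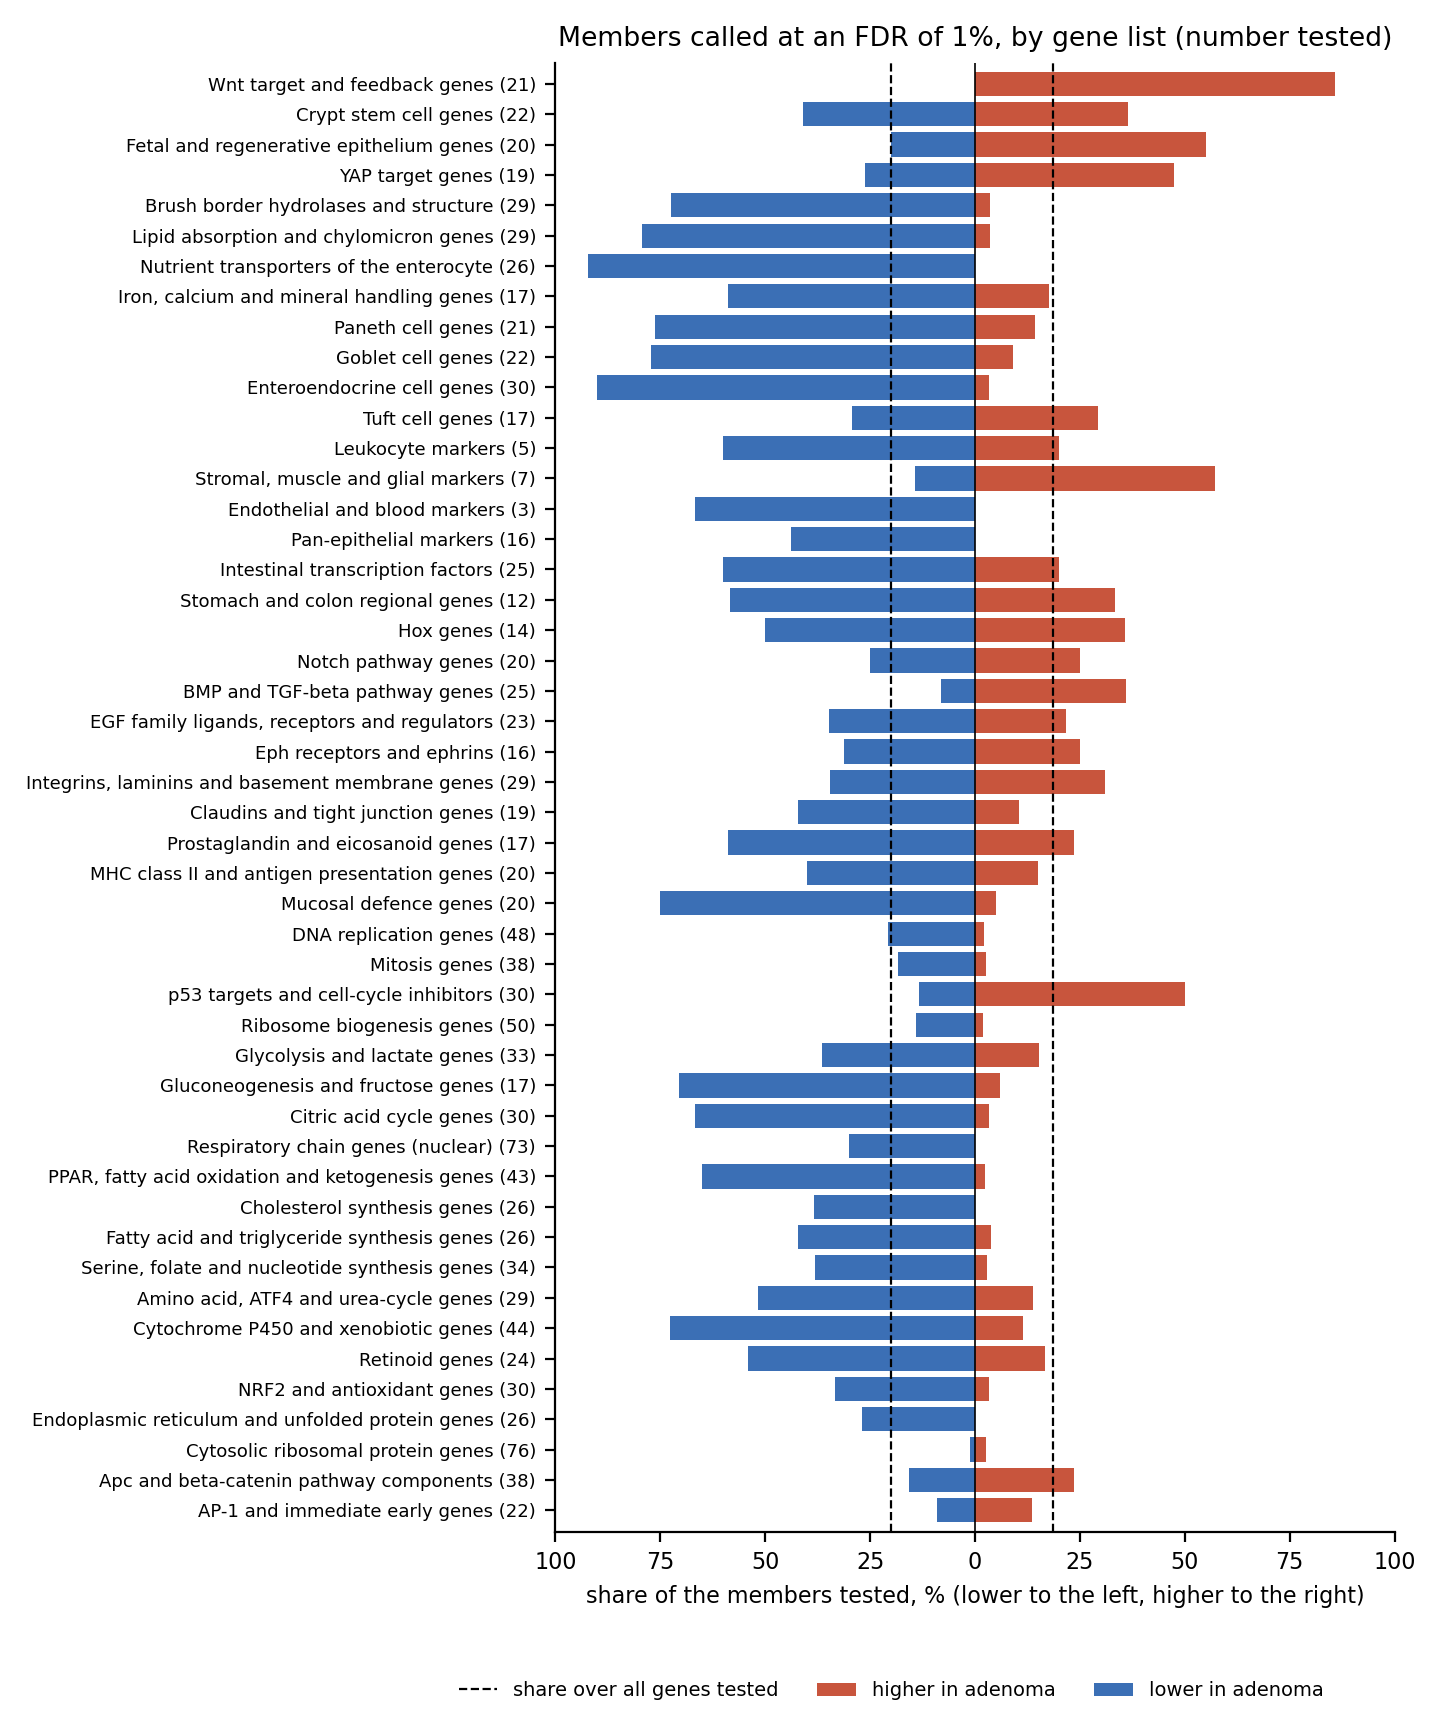
Share of the members tested that were called higher (red, to the right) or lower (blue, to the left) in adenoma for each of 48 gene lists, with the number tested in brackets and dashed lines at the shares over all genes, 18.5% higher and 20.1% lower. Wnt targets reach 85.7% higher, while enterocyte transporters and enteroendocrine genes reach 92.3% and 90.0% lower.

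On the list of Wnt target and feedback genes, every member called was higher in adenoma. The list was written with earlier results of these data known, and stem cell genes such as Lgr5, which fell, are on another list. Of 24 such genes 21 were tested, 18 rose and 0 fell, with a median log2 fold change of 2.16. The largest changes were in secreted or intracellular brakes on the pathway. Notum, an enzyme that inactivates Wnt ligands, was at 0.621, 0.829 and 0.696 CPM in MIN and 281, 402 and 403 CPM in adenoma (log2 fold change 8.97 ± 0.23 (SE), adjusted p = 3.87e-08 by edgeR's quasi-likelihood test). Its transcript shares 29.5% of its stretches with other genes, mostly an antisense RNA. Nkd1, an inhibitor acting through Dishevelled, rose from 2.76, 3.42 and 1.81 to 640.0, 867 and 777 CPM. Wif1, which binds Wnt ligands, rose from 0.422, 0.436 and 0.723 to 62.7, 203 and 127 CPM. No adenoma value of these genes was near a MIN value. Prox1, a homeobox factor known as a beta-catenin target in intestinal tumors, rose from 3.2 ± 0.27 to 251 ± 126 CPM. The classical feedback genes were already well expressed in MIN. Axin2, a scaffold of the destruction complex, rose from 297, 273 and 155 to 698, 888 and 656 CPM (1.63 ± 0.24, log2 fold change ± SE). Rnf43, a ubiquitin ligase that removes Wnt receptors, rose from 134, 117 and 105 to 497, 570.4 and 518 CPM (2.16 ± 0.13, log2). The 3 genes tested that did not pass were Ephb2, Myc and Cd44, often cited as Wnt targets, with log2 fold changes of -0.26, -0.10 and -0.04 (Myc and Cd44 named after their values were seen).

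The promoters of the called Wnt targets that hold a TCF/LEF motif are shown because these letters are what beta-catenin's partners bind. The search covered the 250 bases before the gene start in RefSeq promoters (GRCm38.p6, a later build than the mm9 of the submitters' notes) for CTTTGAA or CTTTGAT on either strand. Of 16 Wnt target genes with a promoter in that set 2 held the motif (12.5%), and so did 8.63% of all 27025 genes. Both holders, Sp5 (a zinc finger factor) and Tnfrsf19 (a receptor of the TNF family), were chosen after their values were seen. Capitals mark the motif, which lies 104 bases before the start in Sp5 (chr2:70474673-70474922, plus strand) and 202 bases before it in Tnfrsf19 (chr14:61037988-61038237, minus strand). Bases just after the RefSeq start of Tnfrsf19, unlike those of Sp5, were not found in the gene's GENCODE M21 transcripts, so its distance is less certain.
Sp5: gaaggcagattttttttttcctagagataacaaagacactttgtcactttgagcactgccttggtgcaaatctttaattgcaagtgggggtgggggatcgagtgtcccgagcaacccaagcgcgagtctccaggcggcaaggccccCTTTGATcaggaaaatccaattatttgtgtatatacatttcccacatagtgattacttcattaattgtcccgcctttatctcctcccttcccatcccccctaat
Tnfrsf19: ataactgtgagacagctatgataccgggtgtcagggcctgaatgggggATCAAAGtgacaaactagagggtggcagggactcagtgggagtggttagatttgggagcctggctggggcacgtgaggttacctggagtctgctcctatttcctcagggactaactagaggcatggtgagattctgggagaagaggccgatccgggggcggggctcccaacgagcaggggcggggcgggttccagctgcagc
Sp5 rose from 5.56 ± 1.28 to 54.2 ± 11.3 CPM. Tnfrsf19 rose from 34.3 ± 10.1 to 596 ± 62.6 CPM. A match of letters is a description and does not show binding.

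The components of the pathway itself were mixed. Apc was at 182, 179 and 171 CPM in MIN and 227, 241 and 119.6 CPM in adenoma (log2 fold change 0.14, adjusted p = 0.642 by edgeR's quasi-likelihood test), with adenoma replicate 3 below and the other adenoma samples above every MIN sample. Without adenoma replicate 3 the log2 fold change was 0.40 and Apc passed (adjusted p = 0.00623). The count of Apc reads does not check the labels, since the mutated copy is transcribed too. Beta-catenin (Ctnnb1) did not pass the test either (0.35 ± 0.13, adjusted p = 0.045). Of 42 components 38 were tested, 9 rose and 6 fell. The shares, 23.7% higher and 15.8% lower, were near the 18.5% and 20.1% over all genes. Ligands were among the extremes. Wnt6 rose from 0.248, 0.0654 and 0.111 to 40.4, 71.1 and 54.8 CPM. Wnt10a was at 2 or 3 counts per MIN library and at 6.57, 9.45 and 8.76 CPM in adenoma, a count ratio of 144 (69.6 to 359) with its 95% counting interval. Wnt7b, not on that list but one of the 12 largest increases over all genes, rose from 0.124, 0.0436 and 0.0556 to 48, 49.1 and 57.8 CPM. Wnt3, the ligand that Paneth cells make for stem cells, fell from 20.4, 17.3 and 12.9 to 1.58, 2.26 and 1.6 CPM. The Wnt receptor Fzd5 fell from 99.6, 116 and 114 to 12.8, 13.3 and 11.7 CPM. Fzd8, another receptor of the family, had no count in adenoma against 2.68 ± 0.386 CPM in MIN, at least 30.9-fold lower.

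Crypt stem cell genes did not move together. All 22 genes listed were tested, 8 rose and 9 fell, with a median log2 fold change of -0.28. Lgr5, the R-spondin receptor that marks crypt base stem cells, fell from 269.7, 231 and 193 to 120.1, 125 and 78.8 CPM (-1.10 ± 0.20, log2). Ascl2, a transcription factor of the same cells, rose from 27.4, 32.3 and 17.1 to 72.6, 58.5 and 67.6 CPM (1.37 ± 0.22, log2). Smoc2, a matrix protein of stem cells, was at 333 ± 61.1 CPM in MIN and 304 ± 109 CPM in adenoma and the groups overlapped. Olfm4, a secreted glycoprotein abundant in crypt base cells, was at 1436, 1627 and 672 CPM in MIN and 0.115, 0.0286 and 0.237 CPM in adenoma, 1 to 8 counts per library. Aqp4, a water channel, fell from 193 ± 29.1 to 0.412 ± 0.263 CPM. Slc12a2, a sodium, potassium and chloride cotransporter, fell from 982 ± 136 to 192 ± 62.3 CPM. Sox4 rose from 64.9 ± 6.65 to 228 ± 62.6 CPM, but 54.1% of its stretches occur in another gene. MIN replicate 3 had the lowest MIN value in 17 of the 22 genes, among them Olfm4 and Ascl2, and adenoma replicate 3 the lowest adenoma value in 12.

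Genes of the fetal or regenerating epithelium rose more often than they fell, with 11 higher and 4 lower among 20 tested of 22 listed and a median log2 fold change of 1.98. The keratin Krt4 rose from 2.04, 0.545 and 1.39 to 43.3, 35.4 and 30.6 CPM. Ly6a (Sca-1), a marker of repair, was at 15.4, 14.2 and 89.5 CPM in MIN and 195, 124 and 227 CPM in adenoma and did not pass the test (adjusted p = 0.0229 by edgeR's quasi-likelihood test). MIN replicate 3 stood far above the other MIN samples for this gene, and without it the adjusted p was 4.65e-05. The EGF-like growth factors of the list went the other way. Areg, amphiregulin, fell from 73.4, 71.9 and 251 to 15.5, 10.7 and 18.8 CPM. Ereg, epiregulin, was at 9.01, 4.1 and 11 CPM in MIN with no count in adenoma, at least 92.7-fold lower. Areg, at its highest in MIN replicate 3, loses its call without adenoma replicate 1 or without the low-count filter. MIN replicate 3 was the highest MIN sample in 13 of the 20 genes.

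Targets of YAP, the effector of the Hippo pathway that is active in repair and fetal growth, were split as well, with 9 higher and 5 lower of 19 tested (20 listed). Ankrd1, an ankyrin repeat protein, rose from 0.0745, 0.0872 and 0.111 to 7.18, 6.97 and 8.76 CPM. Ctgf, connective tissue growth factor, rose from 2.83, 1.22 and 2.09 to 31.7, 27.3 and 37.7 CPM. Cyr61, a matrix protein of the same family, did not pass the test (0.91 ± 0.30, log2), but did without MIN replicate 3 (adjusted p = 0.00027). Ptpn14, a phosphatase that binds YAP, rose from 9.73 ± 1.23 to 119 ± 33.9 CPM. Nt5e, an ectonucleotidase, fell from 1.12, 1.16 and 13.4 to 0.0574, 0.143 and 0.0592 CPM. F3, tissue factor, fell from 32.4, 34.3 and 174 to 7.46, 5.28 and 7.16 CPM. Both were highest in MIN replicate 3, as were 14 of the 19 genes. Both lose their calls without the low-count filter or without any single adenoma replicate, when 3 of the YAP targets are lower.

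**Figure D3:**
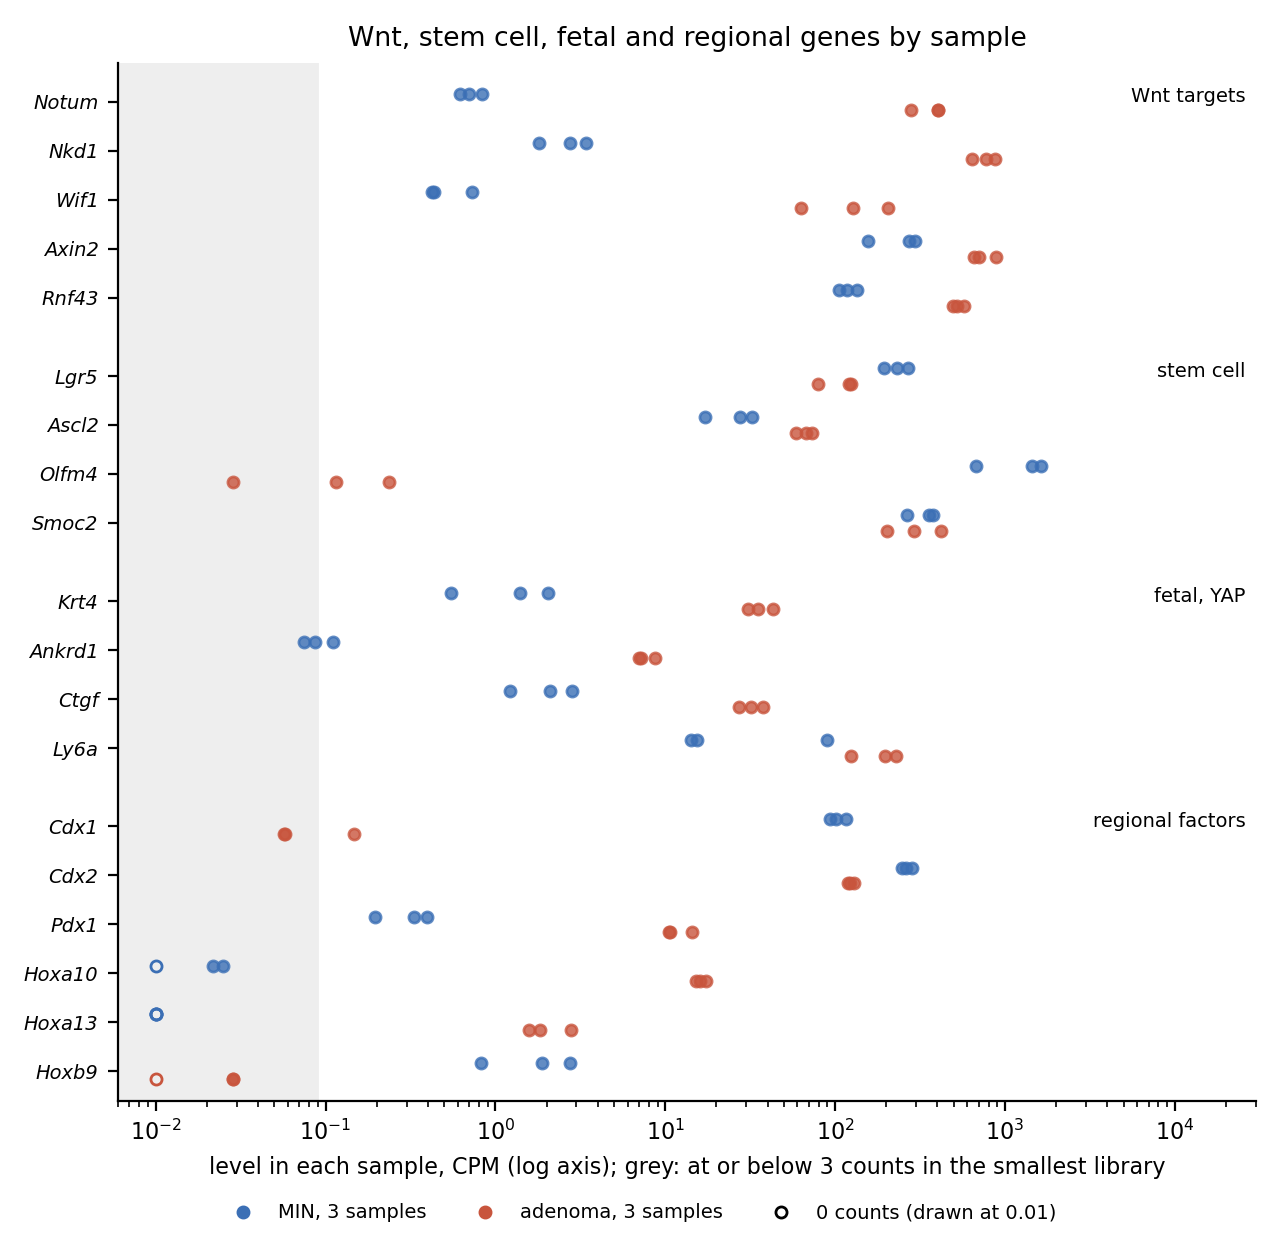
Level in each of the 6 samples (x axis, CPM, log axis) for Wnt targets, stem cell genes, fetal and YAP genes and regional transcription factors, with MIN in blue, adenoma in red, open circles for 0 counts and grey shading for levels at or below 3 counts. Notum, Nkd1, Ankrd1 and Hoxa10 show wide gaps between the groups, Smoc2 overlaps, and the third MIN value of Ly6a lies near the adenoma values.

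Absorptive genes were lower in adenoma. Fewer enterocytes and less RNA of these genes per cell cannot be told apart in bulk samples, and this holds for every cell type below. Of 29 brush border genes, all tested, 21 fell and 1 rose, with a median log2 fold change of -3.15. Sis, sucrase-isomaltase, fell from 1571, 1705 and 1634 to 2.24, 3.06 and 2.51 CPM (log2 fold change -9.29 ± 0.19 (SE), adjusted p = 1.65e-08 by edgeR's quasi-likelihood test). Dpp4, a peptidase that trims hormones and dietary peptides, was at 160.3, 145 and 176 CPM in MIN and at 0 or 1 count per library in adenoma, a count ratio of 8250.4 (2284 to 68131) with its 95% counting interval. Enpep, an aminopeptidase, fell from 159, 161 and 167 to 0.0861, 0.114 and 0.0592 CPM. Lct, lactase, was low and uneven in MIN, at 17.2, 9.83 and 2.53 CPM, and had 2, 0 and 0 counts in adenoma. The structural protein villin (Vil1) fell less, from 552, 548 and 517 to 233, 169 and 197 CPM. The single gene that rose was Espn, an actin-bundling protein, from 25.6, 23.2 and 20.1 to 87.5, 101 and 136 CPM.

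Promoters of brush border genes that hold an HNF4 motif (CAAAGTCCA on either strand) are shown because HNF4 factors are known regulators of enterocyte genes. A match of letters does not show binding, and a part of HNF4 factors in these changes was not tested. The motif was in 2 of 25 brush border promoters (8.0%) and in 0 of 22 of the lipid list, against 0.451% of 27025 genes. Alpi, intestinal alkaline phosphatase, holds it 19 bases before its start (chr1:87101607-87101856, minus strand). Treh, trehalase, chosen after its values were seen, holds it in chr9:44672983-44673232 (plus strand). Capitals mark the motif.
Alpi: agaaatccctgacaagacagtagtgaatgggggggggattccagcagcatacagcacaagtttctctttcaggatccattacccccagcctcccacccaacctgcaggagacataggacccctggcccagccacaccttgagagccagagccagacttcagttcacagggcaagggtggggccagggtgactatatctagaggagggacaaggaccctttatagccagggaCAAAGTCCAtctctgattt
Treh: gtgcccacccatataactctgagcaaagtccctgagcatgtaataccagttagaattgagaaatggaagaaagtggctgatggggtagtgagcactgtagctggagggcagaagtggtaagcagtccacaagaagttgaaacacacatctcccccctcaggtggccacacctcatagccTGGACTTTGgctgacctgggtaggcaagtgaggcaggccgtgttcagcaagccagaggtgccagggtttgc
Alpi was at 109, 123 and 89 CPM in MIN and 0.0861, 0.0286 and 0.0296 CPM in adenoma, a count ratio of 2250.4 (964 to 6932) with its 95% counting interval, and Treh fell from 21.7 ± 7.03 to 0.202 ± 0.174 CPM. Other motifs were searched in the same way. Letters bound by E2F factors were in 15.4% of 39 DNA replication promoters, against 1.51% of all genes. Letters of the sterol element were in 10.5% of 19 cholesterol synthesis promoters, against 0.796%. The median log2 fold changes of these lists were -0.24 and -0.52.

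Genes that package dietary fat fell with the hydrolases. All 29 genes of lipid absorption were tested, 23 fell and 1 rose, with a median log2 fold change of -4.11. Mttp, which loads fat onto apolipoprotein B, fell from 683, 674 and 500.3 to 9.73, 11.1 and 8.05 CPM. Apob, apolipoprotein B itself, fell from 504, 462 and 435 to 7.58, 3.94 and 4.23 CPM. Fabp1, a fatty acid carrier, was at 787, 724 and 239 CPM in MIN and 0.0287, 0.0286 and 0.207 CPM in adenoma. Apoa4 fell from 1409.8, 1028 and 427 to 0.258, 0.143 and 0.237 CPM, with 60.9% of its stretches shared with other genes. Scarb1, a lipoprotein receptor, was the gene that rose, from 26.6, 26.2 and 30.1 to 68, 63.9 and 68.1 CPM. In MIN replicate 3, 20 of the 29 genes had their lowest MIN value, Fabp1 and Apoa4 among them.

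Of 26 nutrient transporters tested (27 listed) 24 fell and 0 rose, the largest share of decreases among the 48 lists. Their median log2 fold change was -6.16, or -5.76 with the 3 genes without a count in adenoma set to their bound. Slc5a1, the glucose carrier SGLT1, fell from 669, 727 and 622 to 17.7, 12.6 and 11.2 CPM. The glucose carrier Slc2a2 fell from 30.3 ± 6.44 to 0.772 ± 0.133 CPM. Slc2a5, the fructose carrier, fell from 41.5, 23.7 and 10.2 to 0.201, 0.428 and 0.207 CPM. Slc15a1, the peptide transporter, fell from 20.4, 13.9 and 11 to 0.689, 0.486 and 0.799 CPM. Slc6a19, a carrier of neutral amino acids, was at 31.3, 32.9 and 10.7 CPM in MIN with no count in adenoma, at least 287-fold lower.

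Genes of iron and mineral handling fell in 10 and rose in 3 of 17 tested (20 listed). Slc11a2, the iron importer, fell from 147, 102 and 115 to 47.1, 46.2 and 43.9 CPM. Cybrd1, the ferric reductase, fell from 74.3, 41.3 and 37.6 to 1.21, 0.80 and 1.06 CPM. S100g, the calcium carrier calbindin-D9k, had no count in adenoma against 11.5 ± 2.58 CPM in MIN, at least 133-fold lower. The 3 that rose were Fth1, Slc40a1 and Ftl1. Fth1, the ferritin heavy chain, went from 837, 850.1 and 707 to 2194, 2709.7 and 4025 CPM. Slc40a1, the iron exporter ferroportin, went from 27.3, 19.4 and 27.2 to 60.2, 47 and 47.7 CPM. Ftl1, the ferritin light chain, rose from 1986 ± 219 to 3814 ± 1218 CPM, but it fails the 1% FDR without any single one of 4 of the 6 samples and shares 58.4% of its stretches with other genes.

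Genes of Paneth, goblet and enteroendocrine cells were mostly lower in adenoma, while the tuft cell list moved both ways. Of 21 Paneth cell genes, all tested, 16 fell and 3 rose, with a median log2 fold change of -3.22. Lyz1, lysozyme, fell from 3818, 5868 and 4664 to 28.4, 71 and 27.9 CPM, with the highest adenoma value in replicate 2. The defensin Defa24 fell from 3489, 3617 and 4394 to 7.55, 21.3 and 16.5 CPM. Of their stretches 16.1% and 28.1% occur in related genes. Itln1, an intelectin, fell from 3683, 4465 and 3780.4 to 229, 209 and 356 CPM. Ang4, a microbicidal ribonuclease, fell from 166, 200.3 and 217 to 23.4, 83.1 and 29.96 CPM but was uneven in adenoma and fails the 1% FDR without MIN replicate 3, without adenoma replicate 3 or without the low-count filter. Among the 3 genes that rose was Mmp7, the matrilysin that activates defensins, from 197, 184 and 193 to 618, 691 and 852 CPM. Cd24a, a surface glycoprotein, rose from 436, 499.8 and 487 to 785, 1009 and 941 CPM and is also found on stem cells. Sntb1, a syntrophin, rose from 0.766 ± 0.152 to 6.99 ± 3.14 CPM.

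Goblet cell genes fell in 17 and rose in 2 of 22 tested (24 listed). Muc2, the main gel-forming mucin, fell from 107, 85.9 and 155 to 0.603, 0.685 and 0.592 CPM. Spdef, a transcription factor of goblet cells, fell from 17.3, 15 and 14.7 to 0.344, 0.543 and 0.325 CPM. Tff3, a trefoil peptide, fell from 642, 643 and 724 to 60.8, 138 and 75.1 CPM. Fcgbp, a mucus protein, fell from 1038, 915 and 889 to 34.8, 63.6 and 21.8 CPM. Zg16, a lectin, was at 38.9 ± 12.3 CPM in MIN and had 1 count in the 3 adenoma libraries. The 2 genes that rose were Fut2, a fucosyltransferase, from 3.13, 2.18 and 6.73 to 72.4, 70.9 and 71.4 CPM, and Bcas1, from 8.94 ± 2.08 to 42.9 ± 6.08 CPM.

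All 30 enteroendocrine genes were tested, 27 fell and 1 rose. Their median log2 fold change was -7.89, or -6.00 with the 6 genes that had no count in adenoma at their bound. Chga, the granule protein chromogranin A, was at 26.9, 18.5 and 32.3 CPM in MIN and had 1 count in the 3 adenoma libraries. Chgb, chromogranin B, was at 205, 253 and 448 CPM in MIN and 0.0861, 0.143 and 0.0592 CPM in adenoma. Gcg, which encodes glucagon-like peptides, was at 46.9, 33.7 and 56.8 CPM in MIN and had 1 count in the 3 adenoma libraries. Neurog3, the factor that starts this lineage, fell less, from 17.8, 21.4 and 10.04 to 1.03, 2.14 and 0.473 CPM. Neurod1, which acts after it, was at 4.83 ± 0.721 CPM in MIN with 1 count in adenoma. Isl1 was the gene that rose, from 2.56, 1.37 and 2.03 to 6.2, 10.2 and 7.28 CPM. MIN replicate 3 had the highest MIN value in 20 of the 30 genes.

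Tuft cell genes moved both ways, with 5 higher and 5 lower among 17 tested (26 listed) and a median log2 fold change of -0.87. Each share was 29.4%, against 18.5% higher and 20.1% lower over all genes. The number higher was 3 without MIN replicate 1, MIN replicate 2 or adenoma replicate 3. Dclk1, a tuft cell kinase, fell from 1.89, 2.44 and 5.23 to 0.201, 0.228 and 0.0296 CPM. Pou2f3, the factor the lineage needs, fell from 3.35, 3.62 and 3.48 to 0.316, 0.628 and 0.473 CPM. The taste channel Trpm5 was at 3.45 ± 1.17 CPM in MIN and 1.47 ± 0.541 CPM in adenoma and missed the threshold (adjusted p = 0.0199 by edgeR's quasi-likelihood test). Vav1, a signalling protein also known from blood cells, rose from 1.14, 0.567 and 1.73 to 3.67, 5.97 and 7.6 CPM. The homeobox gene Hmx2 rose from 0.0497, 0.0654 and 0.306 to 1.52, 1.37 and 1.98 CPM.

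**Figure D4:**
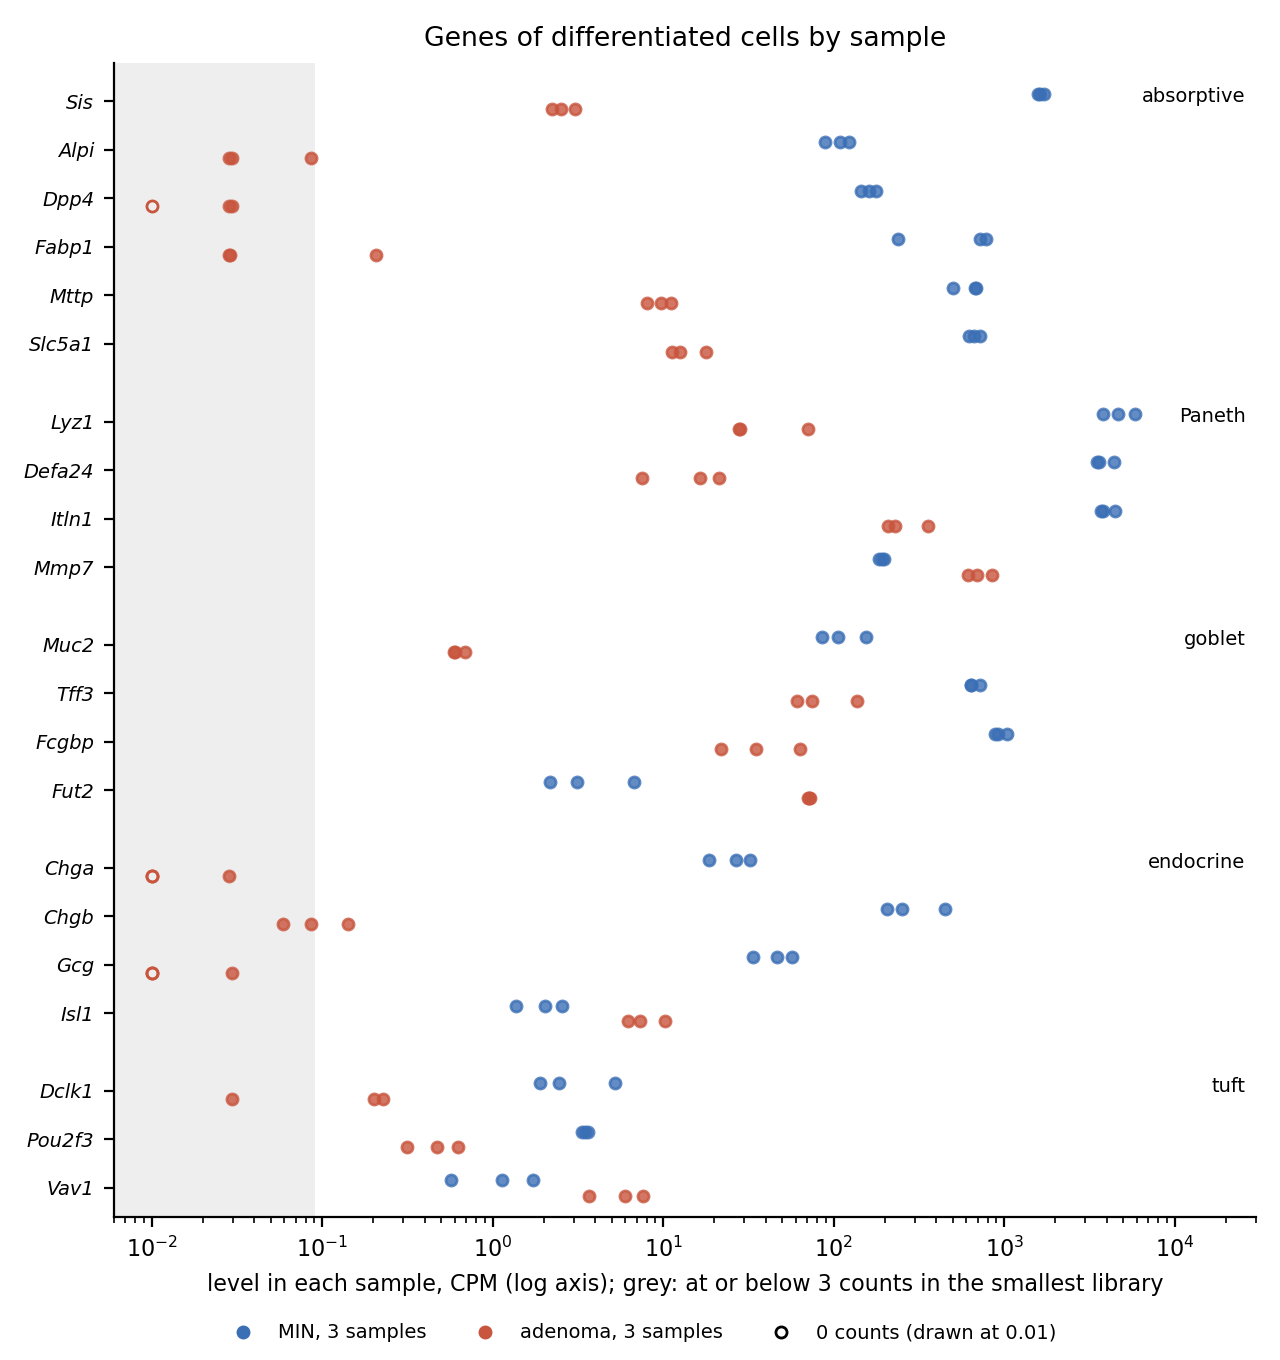
Level in each of the 6 samples (x axis, CPM, log axis) for genes of absorptive, Paneth, goblet, enteroendocrine and tuft cells, with MIN in blue, adenoma in red, open circles for 0 counts and grey shading for levels at or below 3 counts. Most genes lie far to the right in MIN, and Mmp7, Fut2, Isl1 and Vav1 lie to the right in adenoma.

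The transcription factors that set intestinal identity fell in 15 and rose in 5 of 25, all tested, with a median log2 fold change of -0.95. Cdx1, a caudal homeobox factor, was at 93, 116 and 101 CPM in MIN and 0.0574, 0.0571 and 0.148 CPM in adenoma, 2 to 5 counts per library. Its relative Cdx2 fell less, from 248, 261 and 285 to 122, 129 and 119.5 CPM (-1.10 ± 0.10, log2). Hnf4a, a nuclear receptor of the enterocyte program, fell from 1105, 1175 and 1298 to 312, 280.4 and 251 CPM. Its paralog Hnf4g fell from 134, 160.4 and 127 to 12.5, 15.1 and 9.02 CPM. Creb3l3, a regulator of lipid genes, fell from 59.2 ± 25 to 0.212 ± 0.0351 CPM. Gata4, which marks the upper small intestine, fell slightly, from 113, 118 and 123 to 74.9, 68.8 and 70.8 CPM (-0.72 ± 0.10, log2). Pdx1, the factor of the duodenum and pancreas, rose from 0.397, 0.196 and 0.334 to 10.5, 14.4 and 10.6 CPM. Prdm1, a repressor of the fetal and suckling gut, rose from 1.51, 1.5 and 1.92 to 11.1, 7.0 and 13.4 CPM.

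Hox genes, whose order along the chromosome follows the body axis, changed both ways. Of 36 listed, 14 were tested, 5 rose and 7 fell. With at least 10 counts in every sample 1 rose and 1 fell, and without the low-count filter 11 fell. In the HoxA cluster the genes that fell were Hoxa2, Hoxa3 and Hoxa4 (log2 fold changes of -1.81, -1.56 and -2.34), and those that rose were Hoxa9, Hoxa10 and Hoxa13, a pattern described after the values were seen. The other Hox genes that rose lie outside this cluster. Hoxa2 loses its call without any single one of 4 of the 6 samples, and Hoxa4 without any single one of 3. Hoxa10 was at 0.0248, 0.0218 and 0 CPM in MIN, at most 1 count per library, and at 15.2, 17.4 and 16 CPM in adenoma, a count ratio of 990.3 (274 to 8184) with its 95% counting interval. Hoxa13 had no count in MIN and was at 1.58, 2.77 and 1.83 CPM in adenoma, at least 27.7-fold higher. Hoxa9 was at 1.61, 1.31 and 1.39 CPM in adenoma with 1 count in the 3 MIN libraries. Hoxb9 fell from 0.82, 1.88 and 2.75 to 0.0287, 0.0286 and 0 CPM. Hoxb4 fell from 0.621, 0.523 and 1.03 to 0, 0.0286 and 0.0592 CPM. Hoxb3 and Hoxb6 also fell, and 51.4% of the stretches of Hoxb3 occur in an antisense RNA.

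Genes typical of stomach or colon gave no single picture, with 4 higher and 7 lower of 12 tested (24 listed). The number higher was 2 without MIN replicate 1, MIN replicate 2 or adenoma replicate 3. Car2, carbonic anhydrase 2, rose from 4.67, 6.96 and 23.3 to 329.9, 192 and 319 CPM. Tff2, a trefoil peptide of the stomach, rose from 0, 0.0436 and 0 to 1.26, 4.97 and 2.07 CPM. Slc26a3, the chloride exchanger of the lower gut, was at 30.4, 27 and 18.7 CPM in MIN with no count in adenoma, at least 292-fold lower.

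Epithelial markers were abundant in both groups. Of 16 pan-epithelial markers 7 fell and 0 rose, and their summed level was 7448 to 10428 CPM in MIN and 4999 to 6055 CPM in adenoma. The keratin of mature surface cells, Krt20, fell from 177, 169 and 189 to 0.517, 0.343 and 1.45 CPM. Krt19 fell from 1133 ± 339.9 to 423 ± 100.1 CPM. Of 18 leukocyte markers 5 were tested, 1 rose and 3 fell. Of 18 stromal, muscle and glial markers 7 were tested, 4 rose and 1 fell, with a median log2 fold change of 2.49. Of 12 markers of vessels and blood 3 were tested, 0 rose and 2 fell. Their summed levels in MIN and adenoma were 63.5 to 97.7 against 11.4 to 19.7 CPM for leukocytes, 8.85 to 10.03 against 132 to 301 CPM for stroma, and 11.4 to 20.4 against 3.43 to 8.78 CPM for vessels and blood. Lcp1, an actin-bundling protein of leukocytes that some epithelia also express, held most of the leukocyte sum in MIN, at 90.9, 86.2 and 55.5 CPM against 5.2, 2.51 and 2.19 CPM in adenoma. Other markers held most of the adenoma sums of 16.9, 11.4 and 19.7 CPM. The lower leukocyte sum in adenoma thus follows Lcp1 and gives no direction for the other leukocyte markers. The defining leukocyte genes were near 0: Ptprc (CD45) had 0, 1 and 0 counts in MIN and 8, 4 and 4 in adenoma, and Cd3e had at most 2 counts in any library. Of the defining stromal genes Col1a2 and Col3a1 had 0 counts in every library and Acta2 at most 3. Col1a1, the remaining defining collagen, was at 0.323, 0.218 and 0.612 CPM in MIN and 1.15, 0.914 and 1.6 CPM in adenoma and did not pass the test (adjusted p = 0.0101 by edgeR's quasi-likelihood test). Without MIN replicate 3, its highest MIN sample, Col1a1 passed (adjusted p = 0.0039), as it did in DESeq2 (adjusted p = 0.00489). Vim, vimentin, a filament of mesenchymal cells and of some epithelia, held most of the stromal sum in adenoma and rose from 4.87, 3.36 and 2.98 to 108, 266 and 162 CPM. Fn1, fibronectin, rose from 0.0745, 0.174 and 0.0835 to 21, 31.2 and 24.3 CPM. The part of cells other than epithelium in the changes above was not tested.

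In the Notch pathway, which decides between absorptive and secretory fate, 5 genes rose and 5 fell of 20 tested (25 listed), with a median log2 fold change of -0.10. Without MIN replicate 1 or 2 the number that fell was 3. Hes1, the target that blocks secretory fate, was at 65.4, 87.6 and 92.6 CPM in MIN and 67.7, 81.1 and 88.2 CPM in adenoma and did not pass the test (-0.05 ± 0.16, log2). Atoh1, the factor that Hes1 represses and that secretory cells need, fell from 16.5, 15.7 and 18.2 to 2.07, 1.66 and 0.947 CPM. The ligand Dll1 of the same cells fell from 25.2, 28.1 and 22.6 to 5.51, 5.37 and 4.41 CPM. The ligand Jag1 rose from 17.8, 21.3 and 32.6 to 95.2, 101 and 92.2 CPM. The receptor Notch3 rose from 7.38, 7.26 and 8.82 to 39.7, 41.6 and 28.6 CPM. Hes6, an inhibitor of Hes1, rose from 67.4, 73.4 and 62.4 to 272, 235 and 333 CPM.

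BMP and TGF-beta genes rose in 9 and fell in 2 of 25 tested (31 listed). The ligand Tgfb3 was at 0.0497, 0.109 and 0.0278 CPM in MIN and 30.1, 35.8 and 33.3 CPM in adenoma. Id3, a target of BMP signalling, rose from 18, 17.7 and 29.5 to 137, 125 and 152 CPM. Id1, a related target, was at 22.4, 27.1 and 52.6 CPM in MIN and 64.2, 58.5 and 83.5 CPM in adenoma without passing (adjusted p = 0.0199 by edgeR's quasi-likelihood test). Without MIN replicate 3, its highest MIN sample, Id1 passed (adjusted p = 0.000514). The ligand Bmp7 rose from 57.9, 53.4 and 49.7 to 110.1, 137 and 118 CPM. Tgfbi, a matrix protein induced by TGF-beta, rose from 2.55 ± 0.191 to 14.5 ± 8.27 CPM.

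Genes of EGF signalling, which drives growth in these cultures and whose ligand was in the medium of both groups, rose in 5 and fell in 8 of 23 tested (26 listed). Their shares were 21.7% higher and 34.8% lower, against 18.5% and 20.1% over all genes. The receptor Egfr did not pass the test (log2 fold change -0.11). Its partner Erbb3 fell from 155, 159 and 149 to 100.2, 85.3 and 58.7 CPM. The feedback gene Dusp6, a phosphatase for ERK, rose from 32.9, 34.7 and 45.7 to 97.6, 107 and 126 CPM. Phlda1, another gene induced by growth factors, rose from 106, 116 and 143 to 301, 381 and 429 CPM.

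Among AP-1 and immediate early genes 3 rose and 2 fell of 22, all tested (1 fell without adenoma replicate 3). That is 13.6% higher and 9.09% lower, against 18.5% and 20.1% over all genes. MIN replicate 3 had the highest MIN value in 21 of the 22 genes. Fos fell from 16.3, 20.2 and 47.5 to 3.59, 2.77 and 3.96 CPM. MIN replicate 3 was its highest sample, and without it Fos fell by 2.41 on the log2 scale, against -3.02 with it.

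Genes of cell contact and matrix moved in both directions. Eph receptors and ephrins, which position cells along the crypt, rose in 4 and fell in 5 of 16 tested (20 listed). The receptor Ephb6 rose from 0.0248, 0.0872 and 0 to 8.24, 8.11 and 5.71 CPM. The ligand Efnb1 fell from 60.5, 66 and 76 to 32.7, 32.5 and 33.7 CPM. Of 29 integrin, laminin and basement membrane genes tested (38 listed) 9 rose and 10 fell. The collagen chain Col18a1 rose from 1.44, 0.85 and 3.31 to 74.9, 93.1 and 86.6 CPM. Col4a1, of the network collagen of basement membranes, rose from 4.72, 2.73 and 0.946 to 48.3, 31.7 and 36.1 CPM. The laminin chain Lamb2 rose from 7.43, 8.09 and 11.6 to 92, 126 and 109.6 CPM. The nidogens, which link laminin to collagen, fell, Nid1 from 5.56, 5.58 and 11.8 CPM to no count, at least 88-fold lower. Nid2 fell from 18.7, 18.3 and 22.4 to 0.115, 0.0286 and 0 CPM. The integrin Itgb4 of hemidesmosomes rose from 123, 123 and 139 to 297, 295 and 319 CPM. Of 19 tight junction genes tested (24 listed) 2 rose and 8 fell, and 0 to 4 rose when 1 sample was left out. Cldn2, a claudin that forms pores for ions, fell from 298, 350.2 and 299 to 17, 18.6 and 15.8 CPM. Cldn15, another pore-forming claudin, fell from 365, 413 and 383 to 6.14, 7.48 and 3.14 CPM.

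Mucosal defence genes fell in 15 and rose in 1 of 20 tested (26 listed), with a median log2 fold change of -6.47. Pigr, the receptor that carries IgA into the gut lumen, fell from 2289, 2756 and 2340.2 to 4.94, 2.43 and 2.13 CPM. Dmbt1, a scavenger receptor in mucus, fell from 448, 743 and 747 to 0.115, 0.0857 and 0.118 CPM. Reg3g, an antibacterial lectin, fell from 17.6, 23.1 and 45.8 to 0.144, 0.20 and 0.0887 CPM. Duox2, which makes hydrogen peroxide at the surface, fell from 22.3, 17.6 and 37.9 to 0.0287, 0.114 and 0.207 CPM. Tlr4, the receptor for lipopolysaccharide, was the gene that rose, from 0.795, 0.785 and 1.0 to 17.7, 11.1 and 9.17 CPM.

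Prostaglandin and eicosanoid genes fell in 10 and rose in 4 of 17 tested (24 listed). The receptor Ptger4 fell from 16.7, 18 and 19.1 to 3.39, 3.11 and 2.63 CPM. Slco2a1, which takes prostaglandins up for breakdown, fell from 8.1, 6.28 and 5.98 to 0.0861, 0.143 and 0.148 CPM. Hpgd, the enzyme that degrades them, was at 21.3, 23.2 and 35.7 CPM in MIN and 19.8, 13.1 and 14.7 CPM in adenoma and did not pass (adjusted p = 0.0237 by edgeR's quasi-likelihood test). Ptgds, prostaglandin D synthase, rose from 0.795, 0.959 and 1.5 to 12.5, 23.8 and 21.5 CPM. Genes of MHC class II and antigen presentation, kept as 1 list, fell in 8 and rose in 3 of 20 tested (23 listed). The immunoproteasome subunit Psmb8 was at 2.11, 0.676 and 0.974 CPM in MIN with 1 count in the 3 adenoma libraries. The peptide transporter Tap1 rose from 14.5, 13.2 and 16 to 26.9, 23.4 and 29.3 CPM.

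Genes of proliferation had small median changes. All 48 DNA replication genes were tested, 10 fell and 1 rose, which is 20.8% lower against 20.1% over all genes, with a median log2 fold change of -0.24. Without MIN replicate 2 the number that fell was 5, as with total count scaling. Mcm2, part of the replicative helicase, was at 154 ± 16 CPM in MIN and 135 ± 19.8 CPM in adenoma and did not pass the test. E2f2, a cell-cycle factor, fell from 43, 43.9 and 40.8 to 5.97, 7.51 and 4.5 CPM. Rfc3, of the clamp loader, rose from 33.5, 33.4 and 27.7 to 53, 71.6 and 83.2 CPM. Of 38 mitosis genes, all tested, 7 fell and 1 rose, which is 18.4% lower against 20.1% over all genes. Mki67, the marker of cycling cells, was at 668, 639 and 501 CPM in MIN and 478, 422 and 270.2 CPM in adenoma (adjusted p = 0.0366 by edgeR's quasi-likelihood test), with replicate 3 the lowest in both groups. That order was shared: MIN replicate 3 had the lowest MIN value in 44 of the 48 replication genes and 31 of the 38 mitosis genes, and adenoma replicate 3 the lowest adenoma value in 37 and 28. The number of mitosis genes that fell was 2 without MIN replicate 1 or 2, 4 without adenoma replicate 1 or 2, 12 in DESeq2 and 1 with total count scaling.

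Targets of p53 and inhibitors of the cell cycle rose in 15 and fell in 4 of 30, all tested, with a median log2 fold change of 0.86. Eda2r, a receptor induced by p53, rose from 3.77, 3.99 and 7.07 to 99.7, 94.6 and 72.1 CPM. Phlda3, which restrains AKT, rose from 12.8, 14.4 and 22.5 to 84.8, 89 and 120.0 CPM. Ccng1, cyclin G1, rose from 162, 204 and 270.0 to 618, 585 and 586 CPM. Mdm2, the ubiquitin ligase that removes p53, rose from 45.1, 44.4 and 50.2 to 103, 101 and 101 CPM. Cdkn1a (p21), the best known target, was at 175, 191 and 279 CPM in MIN and 237, 242 and 322 CPM in adenoma and did not pass the test (0.31 ± 0.20, log2), with MIN replicate 3 above 2 of the adenoma samples. Cdkn2a, which encodes p16 and p19, rose from 0.0993, 0.283 and 0.195 to 1.64, 2.23 and 2.07 CPM. Rb1, the retinoblastoma gene, fell from 138, 152 and 176 to 60.3, 66.7 and 57.7 CPM. Cdkn2b (p15) fell from 30.6, 37.2 and 46.9 to 16.2, 13.9 and 21.5 CPM.

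Ribosome genes were close to the background or below it. Of 50 genes of ribosome biogenesis, all tested, 7 fell and 1 rose, with a median of -0.23, and the number that fell was 2 to 11 when 1 sample was left out. Of 76 ribosomal protein genes 1 fell and 2 rose, with a median of 0.24. The 2 that rose were Fau, from 753, 833 and 959 to 1335, 1376 and 2032 CPM, and Rpl7, from 1920.0, 1949.5 and 2142 to 2927, 2997 and 4255 CPM. Both lose their calls without MIN replicate 1 or 2. Adenoma replicate 3 had the highest adenoma value in 75 of the 76 ribosomal protein genes and MIN replicate 3 the highest MIN value in 64. These genes have many processed copies in the genome, and 29.97% of the stretches of Fau and 21% of those of Rpl7 occur elsewhere.

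Genes of sugar metabolism moved in both directions. Of 33 glycolysis genes tested (35 listed) 12 fell and 5 rose, with a median log2 fold change of -0.27, and the hexokinase Hk2 did not pass the test (0.12 ± 0.15, log2). Ldha, lactate dehydrogenase A, fell from 3552, 3472 and 3182 to 2118, 1915 and 2423 CPM, and lost its call without MIN replicate 1 or 2 or adenoma replicate 1 or 2. Pklr, the pyruvate kinase of liver and gut, fell from 436, 442 and 403 to 120.4, 107 and 131 CPM. Aldoc, an aldolase known from brain, rose from 106, 109 and 147 to 294, 312 and 411 CPM. Hk1, a hexokinase, rose from 83.9, 79.7 and 120.1 to 177, 165 and 194 CPM. Eno2, an enolase known from neurons, rose from 0.0745, 0.0654 and 0.111 to 2.21, 4.91 and 5.35 CPM.

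Gluconeogenesis and fructose genes fell in 12 and rose in 1 of 17, all tested. Fbp1, fructose bisphosphatase, fell from 59.8, 57.4 and 65.4 to 0.144, 0.114 and 0.237 CPM. Khk, fructokinase, fell from 125, 150.2 and 119 to 17, 17.9 and 22.1 CPM. The gene that rose was Pcx, pyruvate carboxylase, from 20.1, 19.9 and 26.8 to 45.8, 42.4 and 40.2 CPM.

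Citric acid cycle genes were mostly lower, by modest amounts. Of 30 citric acid cycle genes, all tested, 20 fell and 1 rose, with a median log2 fold change of -0.66. Mdh2, malate dehydrogenase, fell from 675, 729 and 697 to 244, 223 and 281 CPM (-1.49 ± 0.13, log2). Ogdh, of the oxoglutarate dehydrogenase complex, fell from 359, 375 and 350.3 to 219.9, 211 and 193 CPM (-0.80 ± 0.10, log2). Of 73 nuclear genes of the respiratory chain, all tested, 22 fell and 0 rose, with a median of -0.37. Adenoma replicate 3 had the highest adenoma value in 72 of the 73. Without it 51 genes fell, and without MIN replicate 2 the number was 13. Cyc1, cytochrome c1, fell from 347, 352 and 271 to 160.5, 136 and 172 CPM. Cox7a1, a cytochrome oxidase subunit known from muscle, fell from 14.5, 13.9 and 17.6 to 0.402, 0.40 and 0.444 CPM.

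Genes of PPAR and fatty acid oxidation fell in 28 and rose in 1 of 43 tested (44 listed), or in 18 without MIN replicate 2 and in 18 without adenoma replicate 2. Ppara, the nuclear receptor for fatty acids, fell from 38.7, 42.8 and 28.4 to 2.01, 2.71 and 1.54 CPM. The coactivator Ppargc1a fell from 14.4, 12.6 and 21.6 to 4.1, 3.06 and 1.86 CPM. Angptl4, a PPAR target, was at 8.02, 6.3 and 5.59 CPM in MIN with no count in adenoma, at least 76.4-fold lower. Cpt1a, the gate of mitochondrial fatty acid import, did not pass the test (-0.47 ± 0.16, log2). Acsl4, an acyl-CoA synthetase, was the gene that rose, from 42.8 ± 4.91 to 87.9 ± 8.86 CPM.

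Some genes of lipid synthesis were lower. Of 26 cholesterol genes tested (27 listed) 10 fell and 0 rose, with a median of -0.52, and MIN replicate 3 had the lowest MIN value in 24. Without MIN replicate 1 the number that fell was 6, and without MIN replicate 2 it was 5. Insig1, which holds back sterol synthesis, fell from 418, 389 and 359 to 176, 155 and 247 CPM.

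Of 26 fatty acid and triglyceride synthesis genes tested (27 listed) 11 fell and 1 rose. Mlxipl (ChREBP), the carbohydrate-sensing factor, fell from 108, 92 and 150.0 to 17.7, 15.3 and 16.1 CPM. Elovl6, an elongase, fell from 150.4, 150.0 and 137 to 62.3, 44.4 and 36.8 CPM. Fasn, fatty acid synthase, was at 591, 719.7 and 526 CPM in MIN and 439, 426 and 355 CPM in adenoma and just missed the threshold (adjusted p = 0.0106 by edgeR's quasi-likelihood test).

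Serine, folate and nucleotide genes fell in 13 and rose in 1 of 34, all tested. Shmt2, which makes glycine and folate units in mitochondria, fell from 328, 319 and 377 to 135, 177 and 106 CPM. Aldh1l1, a folate dehydrogenase of the cytosol, fell from 83.7, 86.9 and 73.6 to 0.344, 1.06 and 0.237 CPM. Phgdh, the first enzyme of serine synthesis, fell from 391 ± 74.9 to 216 ± 22.9 CPM, with 47.8% of its stretches shared.

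Genes of amino acids, the stress factor ATF4 and the urea cycle fell in 15 and rose in 4 of 29 tested (30 listed). Atf4 fell from 379.9, 430.3 and 623 to 212, 212 and 185 CPM. Its target Asns, asparagine synthetase, fell from 405, 439.5 and 668 to 161, 193 and 91.5 CPM. Both were highest in MIN replicate 3. The urea cycle was split. Cps1, its first enzyme, fell from 3044, 3051 and 1794 to 0.431, 0.20 and 0.532 CPM. Otc, the next, fell from 124, 140.2 and 117 to 0.316, 0.0857 and 0.118 CPM. Ass1, which makes argininosuccinate, rose from 38.2, 38.5 and 30.9 to 278, 274 and 291 CPM. Of the stretches of Ass1 38.6% occur in a processed copy.

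Enzymes that handle foreign compounds fell in 32 and rose in 5 of 44 tested (45 listed), with a median log2 fold change of -4.44. Cyp2c65, a P450 oxidase, fell from 137, 146 and 151 to 0.115, 0.171 and 0 CPM. Cyp3a11, a broad drug oxidase, fell from 53.4, 30.1 and 12.4 to 0.115, 0.257 and 0 CPM. The efflux pump Abcb1a fell from 322, 389 and 443 to 49.9, 43.5 and 37.4 CPM. Of its stretches 22.5% occur in other genes, 16.3% in its paralog Abcb1b. That paralog, named after its values were seen, rose from a mean of 0.81 to 6.13 CPM. Abcg2, another efflux pump, fell from 57.3, 60.1 and 67.1 to 3.24, 1.83 and 1.92 CPM. Ahr, the receptor for aromatic compounds, rose from 23, 23.2 and 25.8 to 136, 173 and 137 CPM. Its target Cyp1b1 rose from 0.919, 0.392 and 0.139 to 59.9, 25.9 and 31.6 CPM. Cyp1a1, its best known target, was at 3.55, 0.741 and 0.39 CPM in MIN and 19.8, 3.57 and 6.95 CPM in adenoma, with the lowest adenoma value just above the highest MIN value, and did not pass the test (log2 fold change 2.69). Without MIN replicate 1, its highest MIN sample, the log2 fold change was 4.12 and Cyp1a1 passed (adjusted p = 0.00344).

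Vitamin A genes fell in 13 and rose in 4 of 24 tested (30 listed). Rbp2, a retinol carrier, fell from 190.4, 148 and 42.1 to 0.172, 0.20 and 0.237 CPM. Adh1, an alcohol dehydrogenase that oxidises retinol, fell from 418, 447 and 220.4 to 0.775, 0.971 and 1.33 CPM. Besides Stra6, Rdh10, which makes retinal from retinol, rose from 29.1, 25.9 and 42.2 to 196, 226 and 243 CPM.

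Antioxidant genes fell in 10 and rose in 1 of 30 tested (31 listed), and without MIN replicate 1 or 2 or adenoma replicate 1 or 2 the number that fell was 4 to 6. Cat, catalase, fell from 225, 239.6 and 202 to 98.3, 74.2 and 82.9 CPM. Gsr, glutathione reductase, fell from 428, 439 and 453 to 196, 179 and 218 CPM. The NRF2 targets Hmox1 and Gclc did not pass the test (log2 fold changes of 0.26 ± 0.27 and 0.28 ± 0.15). Prdx5 rose from 107 ± 5.79 to 215 ± 62.7 CPM. Of 26 genes of the endoplasmic reticulum and unfolded protein response, all tested, 7 fell and 0 rose. That is 26.9% lower against 20.1% over all genes, and with total count scaling 4 fell and 1 rose. Ern2, the stress sensor of mucus-making cells, fell from 15.9, 13.6 and 15.1 to 1.58, 1.51 and 1.45 CPM. Ero1l, an oxidase for disulfide bonds, fell from 1657 ± 335 to 777 ± 101 CPM.

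**Figure D5:**
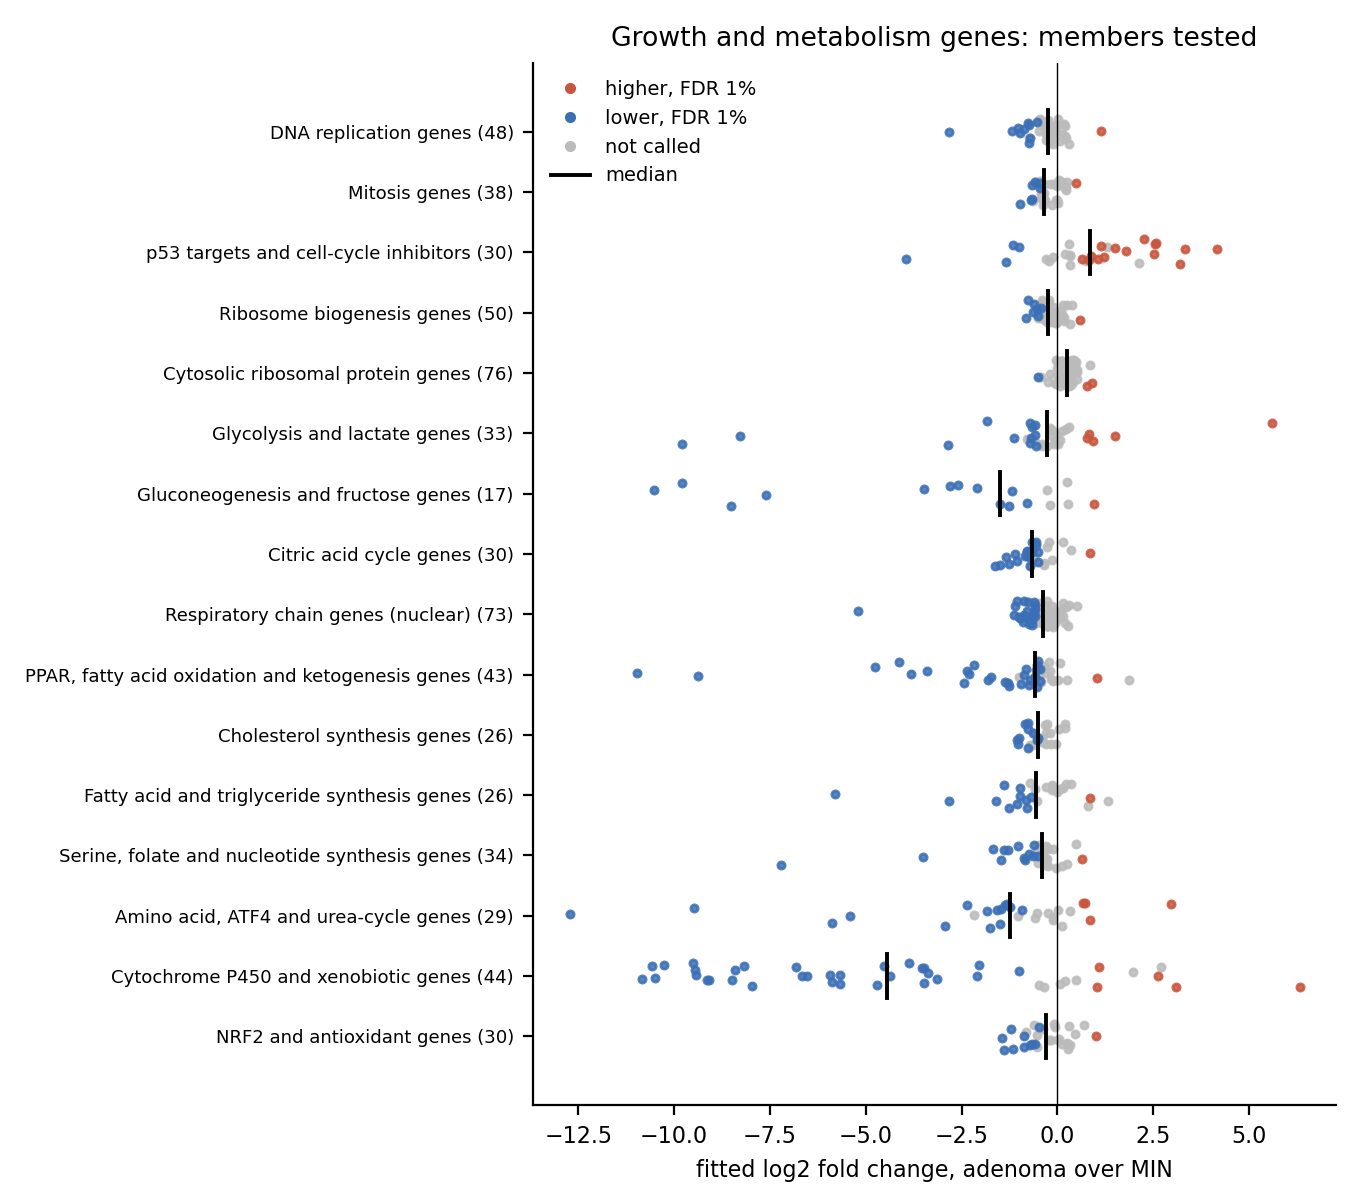
Fitted log2 fold change, adenoma over MIN, of each member tested in 16 lists of growth and metabolism, with higher genes in red, lower genes in blue, others in grey and a black bar at the list's median. Replication, mitosis and ribosome genes gather near 0. The joint list of p53 targets and cell-cycle inhibitors leans to the right with a median of 0.86. Drug-handling genes spread to the left with a median of -4.44. Points of genes without a count in 1 group depend on the fit and are not measured folds.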

How the data were processed

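RNA of 9 organoid cultures from 3 groups was sequenced, and the 6 MIN and adenoma cultures were compared. The authors deposited 1 table of whole-number counts for 23955 gene symbols. The submitters' processing notes name Bowtie2 2.2.4, RSEM and the mouse build mm9, while the annotation and the strand setting are not given in the sources used here. MIN replicate 1 has 3 columns, of which the last is the sum of the other two in all 23955 rows and was used as 1 sample. The depth per sample sets the precision of low values, and 3 counts were taken as the floor. Of the symbols 27 had been turned into dates, and those rows were kept but not named.

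Genes were filtered with filterByExpr and tested in edgeR 4.0.16 (R 4.3.3) by a robust quasi-likelihood fit of the 6 samples after TMM normalization, with Benjamini-Hochberg adjusted p-values over all 13744 genes and an FDR of 1%. The script was tested on simulated data. SE is that of the fitted log2 fold change. The members and the 48 gene lists (1436 entries, 7 of them not analysed here because no symbol matched) were chosen with earlier results of these data known, and so no list was tested as a set. Genes were named by rule: the defining genes of each list, the 4 largest and 4 smallest log2 fold changes per list among called genes without overlap, and the 12 largest and smallest over all genes with at least 10 CPM in the higher group. A selection of the 433 genes so named is described, and others are marked as chosen after their values were seen. A group with 0 counts in every library gives a bound, and one with at most 3 counts in each library a count ratio with an interval. Shared stretches are the 50-base stretches of a gene's GENCODE M21 transcripts found in another gene, and promoters are RefSeq (GRCm38.p6).

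Alternatives were other scaling (RLE, total count), other filters (none, 10 counts in every sample), a fit of all 9 samples, the replicate number as a block, DESeq2 1.42.0, other thresholds, and leaving out each sample in turn.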

Additional observations from a re-analysis of the deposited data

How the results depend on the processing

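The 2549 higher and 2765 lower genes stayed within 1.5 times under every alternative run: 1885 to 2441 higher and 2238 to 2762 lower when 1 sample was left out (fewest without MIN replicate 2), and 1715 to 3493 higher and 1862 to 3670 lower under the other settings, the ends being a 2-fold minimum and an FDR of 5%. Scaling by total count alone gave 3108 higher and 2282 lower genes, or 57.7% higher against 48%. Of 96 list counts (48 lists, each direction) 28 moved by over 1.5 times with a 2-fold minimum, 26 with at least 10 counts in every sample, 14 under total count scaling, 12 in DESeq2, and 7 to 17 when 1 sample was left out. With the 2-fold minimum, which removes small changes by construction, the genes lower fell from 22 to 5 in the respiratory chain, from 20 to 6 in the citric acid cycle, from 28 to 15 in the PPAR list, from 10 to 3 in cholesterol synthesis and from 7 to 0 in mitosis and in ribosome biogenesis. With 10 counts in every sample, which removes genes near 0 in 1 group by construction, they fell from 27 to 3 in enteroendocrine genes, from 24 to 9 in nutrient transporters, from 21 to 12 in the brush border and from 15 to 6 in mucosal defence. The deviations of a MIN and an adenoma sample of equal number from their group means correlated at 0.0793 to 0.186 (other pairs -0.14 to 0.0707), with each of the 6 samples closest to its own number, a hint from the data that was not taken as a pairing. With the replicate block 2531 genes were higher and 2733 lower, 12 mitosis genes were lower against 7, Hoxa4 lost its call (adjusted p = 0.0104), and Cyp1a1, Id1, Ly6a, Col1a1, Mki67, Fasn and Trpm5 passed with adjusted p-values of 0.00109 to 0.00929 by edgeR. Of the genes named, those whose direction changed were near 0 and did not pass the test with all 6 samples. Under total count scaling the log2 fold changes turned to 0.093 for Cd44, 0.025 for Egfr, 0.081 for Hes1, 0.034 for Myc and 0.0083 for Smoc2. When 1 sample was left out they ran from -0.035 to 0.40 for Apc (without adenoma replicates 2 and 3), -0.19 to 0.086 for Cd44, -0.23 to 0.052 for Egfr, -0.20 to 0.049 for Hes1 and -0.43 to 0.094 for Smoc2. Cpt1a and Fasn passed without MIN replicate 3. The cause of these changes was not tested. With 3 samples a group, changes that are small against the spread, as in the ribosome, mitosis and respiratory chain lists, pass or miss the threshold with single samples, and low genes are limited by depth.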
